A study of Mus musculus with 18 samples.

Results

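Edn1, Edn3, Ednrb, Kitl, Nrg1 and Hgf encode growth factors, and a receptor, that act on cells derived from the neural crest. They were chosen by name, as every probe set that the platform annotation assigns to these symbols and to no other gene. That gave 16 of the 45037 probe sets on the array, for 6 of the 18193 genes named by 1 symbol. Edn1, the only probe set of its gene, was called higher in transgenic than in wild-type epidermis and whole skin. The epidermal call held when any 1 wild-type epidermis array was left out. It was lost without any 1 of the transgenic epidermis arrays, and under another variance model. The whole-skin call held when any 1 array was left out, but was lost when all arrays shared 1 estimate of the spread. In both genotypes, 2 of the 4 Kitl and 1 of the 3 Ednrb probe sets were called higher in dermis than in epidermis. Over all tested probe sets, 6.85% were called higher in dermis in transgenic and 9.22% in wild-type skin. Another Kitl probe set was called higher, and Edn1 lower, in dermis of transgenic skin alone. The tested probe sets of Edn3 and Hgf showed no called difference, and the single Nrg1 probe set was too low to be tested.

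RNA was measured on 18 arrays, 3 in each of 6 groups, from C57Bl6xCBA F1 female mice that were 7 weeks old at the start and received 4-hydroxytamoxifen (4OHT) for 14 days. The groups were K14NICDER transgenic and wild-type epidermis, K14NICDER transgenic and wild-type dermis, and K14NICDER transgenic and wild-type whole skin, and the wild-type mice received 4OHT as well. In the transgene, the Notch intracellular domain is joined to a hormone receptor fragment that makes it active when 4OHT is given. It is driven by the keratin 14 promoter, which is active in basal keratinocytes. Whether the tissues of a genotype came from the same animals is not stated in the labels, so p-values measure the spread between these arrays, which may be technical.

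The neural crest gives rise to melanocytes, Schwann cells and sensory neurons, and its derivatives in skin depend on secreted ligands. Edn3 acts through the G protein-coupled receptor Ednrb to expand melanocyte precursors, Edn1 is a vasoconstrictor that keratinocytes and endothelium release, and Kitl, or stem cell factor, acts through the receptor kinase Kit on melanocytes and mast cells. Nrg1 acts through Erbb3 and Erbb4 with Erbb2 as partner, and is required by Schwann cells. Hgf, made mainly by mesenchymal cells, acts through the receptor kinase Met on epithelial cells and melanocytes.

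The labelled tissues were set against marker genes first. Differentiated keratinocyte markers were lower in dermis for 9 of 10 genes in transgenic and 8 of 10 in wild-type skin. Fibroblast markers were higher in dermis for 5 of 10 genes in transgenic and 9 of 10 in wild-type skin. Fibroblast markers also gave signal in epidermis and basal keratinocyte markers in dermis, and whether this was carry-over between the fractions was not tested. Of 8 basal keratinocyte markers, 1 was called higher and 2 lower in transgenic dermis than in transgenic epidermis, and 0 and 1 in wild-type skin. The summed linear signal of the 10 fibroblast markers was 9896 to 14585 in transgenic and 4504 to 10034 in wild-type epidermis, beside 16279 to 32240 in transgenic and 18518 to 23750 in wild-type dermis. Basal keratinocyte markers summed to 9284 to 10029 in transgenic and 11945 to 14486 in wild-type dermis, beside 11009 to 11254 in transgenic and 15844 to 20199 in wild-type epidermis. The genotypes were separated by activated keratinocyte markers such as Krt6a, Krt16 and S100a8, of which 7 of 7 were higher in transgenic epidermis and 7 of 7 in transgenic whole skin. Their summed signal was 12165 to 26326 in transgenic and 1138 to 2778 in wild-type epidermis. Differentiated keratinocyte markers were called higher for 2 of 10 in transgenic epidermis and 3 of 10 in transgenic whole skin, and 0 of 10 were called lower. Their summed signal was 23277 to 28592 in transgenic and 18439 to 24575 in wild-type epidermis, and 11227 to 15458 in transgenic and 9180 to 10378 in wild-type whole skin.

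Values below are log2 MAS5 signals, listed by replicate, and differences are of log2 means ± standard error with n = 3 arrays per group. A probe set was tested where its mean over all 18 arrays exceeded a log2 value of 3.15, the 30th percentile, and was called at a Benjamini-Hochberg adjusted p under 0.05 in limma over all 31526 tested probe sets. Of the 16 member probe sets 12 were tested. The untested ones were the single Nrg1 probe set, 1421136_at and 1441924_x_at of Edn3, and 1442884_at of Hgf. Signals of different probe sets are not set against each other. In bulk tissue, fewer cells of a type and less RNA per cell cannot be told apart.

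Edn1 (1451924_a_at) measured 7.41, 7.23 and 7.56 in transgenic epidermis, against 3.92, 5.28 and 2.21 in wild-type epidermis. The transgenic arrays lay close together and above every wild-type array, while the wild-type arrays spread over 3 log2 units. In transgenic dermis it measured 5.65, 5.54 and 4.98, against 4.87, 6.61 and 5.67 in wild-type dermis, and these groups overlapped. In transgenic whole skin it measured 6.72, 6.73 and 6.69, against 5.69, 5.43 and 5.37 in wild-type whole skin, again with no overlap. Ordered by mean, transgenic epidermis came first at 7.40 ± 0.16 (SD, n = 3), and it overlapped with no other group. Transgenic whole skin followed at 6.72 and also stood clear of the next group. Wild-type dermis, wild-type whole skin, transgenic dermis and wild-type epidermis each overlapped with their neighbour in the order.

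**Figure D1:**
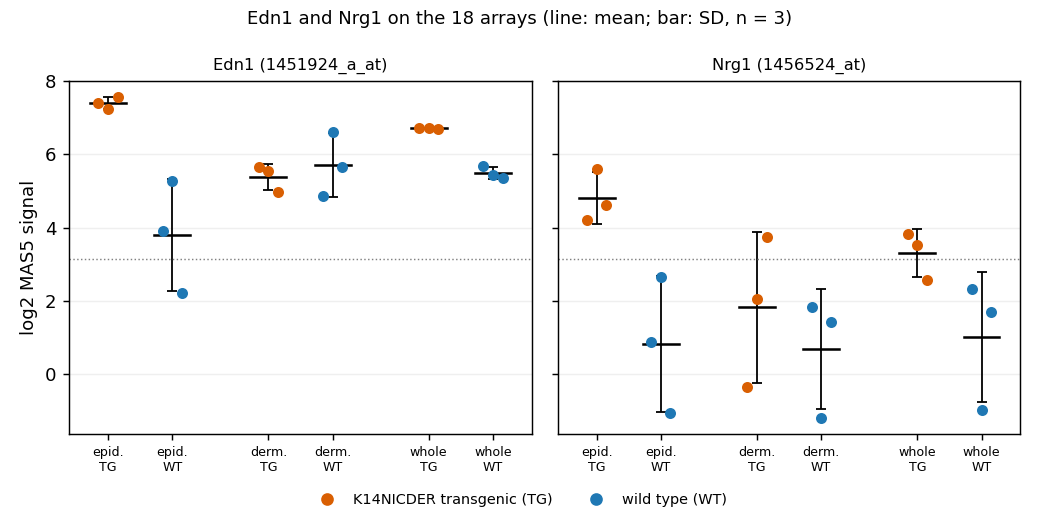
Log2 MAS5 signal of Edn1 and Nrg1 on each of the 18 arrays, in epidermis, dermis and whole skin of transgenic (orange) and wild-type (blue) mice. Lines are means and bars SD of 3 arrays, and the dotted line is the filter at 3.15. The 3 transgenic epidermis arrays sit above the wild-type ones for both genes, while wild-type Nrg1 lies below the dotted line on every array.

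Edn1 rose in transgenic epidermis by 3.59 ± 0.63 (12.1-fold, 95% interval 2.22 to 4.97 on the log2 scale, limma adjusted p = 0.0199). It was the single member probe set called there, 1 of 12 in the higher and 0 of 12 in the lower direction, where 1.49% of all tested probe sets were called (0.923% higher and 0.568% lower) and 17.9% had an unadjusted p under 0.05. Edn1 rose in transgenic whole skin by 1.22 ± 0.15 (2.33-fold, 95% interval 0.89 to 1.55, limma adjusted p = 0.00565), again as 1 of 12, where 1.56% of all tested probe sets were called (0.91% higher and 0.653% lower), and 3 of 12 members had an unadjusted p under 0.05, as did 15.5% of all. In dermis the difference was -0.32 ± 0.48 (95% interval -1.40 to 0.75, limma adjusted p = 0.99), and 0 of 12 member probe sets were called there, with 0.0222% called overall. At an unadjusted p under 0.05 it was 1 of 12 members in dermis, beside 3.91% of all tested probe sets. The difference between the genotype effects, dermis minus epidermis, was -3.92 ± 0.88 (limma adjusted p = 0.326), so it did not pass. No probe set passed in that comparison (0%), while 3 of 12 members and 2333 of all tested probe sets (7.4%) had an unadjusted p under 0.05.

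The epidermal Edn1 difference was 2.80 without wild-type epidermis replicate 3 and 4.33 without wild-type epidermis replicate 2, and its call depended on single arrays and on the variance model. Leaving out transgenic epidermis replicate 1, 2 or 3 gave adjusted p = 0.0924, 0.0763 and 0.0695 in limma, and a prior without a trend gave 0.124. The whole-skin call held when any 1 array was left out (limma adjusted p 0.0151 to 0.0356) and was lost when all 18 arrays shared 1 estimate of the spread (adjusted p = 1). Between layers, Edn1 was lower in transgenic dermis than in transgenic epidermis, with a difference of -2.01 ± 0.33 (limma adjusted p = 0.00494). In wild-type skin the difference was 1.91 ± 0.73, the groups overlapped and it did not pass (limma adjusted p = 0.0856). These comparisons share arrays with the genotype comparisons above.

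Endothelial markers, set beside Edn1 because vessels also make it, gave a called increase for 1 of 10 in epidermis and 1 of 10 in whole skin, in each case Flt1, a receptor for vascular endothelial growth factor (2.18 ± 0.38, limma adjusted p = 0.0191, and 1.03 ± 0.18, adjusted p = 0.0291). The other 9 were not called in either tissue, and in epidermis their differences lay on both sides of 0, between -1.10 for Cldn5, a tight junction protein, and 1.83 for Kdr, another receptor of that growth factor. The 10 markers summed to 224 to 279 in transgenic and 148 to 258 in wild-type epidermis, and to 948 to 1149 in transgenic and 848 to 1118 in wild-type whole skin, so the groups overlapped in both. The part of vessels, and of the activated and differentiated keratinocyte markers given above, in the Edn1 difference was not tested.

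The Edn1 promoter is printed because this is the member with called genotype differences. The RefSeq window of 250 bases before to 50 after the gene start lies at chr13:42301226-42301525 on the plus strand of GRCm38.p6, and capitals mark a match to the GATA motif AGATAA on either strand, at position 259 of the window.
Edn1: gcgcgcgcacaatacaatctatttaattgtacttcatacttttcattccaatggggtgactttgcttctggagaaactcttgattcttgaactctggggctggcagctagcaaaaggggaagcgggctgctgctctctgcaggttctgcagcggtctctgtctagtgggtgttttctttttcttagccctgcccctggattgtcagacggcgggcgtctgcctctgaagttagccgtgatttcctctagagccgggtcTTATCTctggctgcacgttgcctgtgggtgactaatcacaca
This motif was in 11.2% of the 32851 RefSeq windows of the same length. TGGGAA, bound by the Notch partner RBPJ, was in 25.6% of windows, and TGANTCA, bound by AP-1, in 7.81%. Neither of these motifs occurs in this Edn1 window on either strand, which says nothing about binding by either factor.

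Edn3, the ligand that melanocyte precursors need, has 4 probe sets on the array and none gave a called difference. The tested 1438696_at ranged from 3.05 to 4.40 in transgenic and 2.41 to 4.98 in wild-type epidermis, from 3.66 to 4.92 in transgenic and 4.15 to 4.97 in wild-type dermis, and from 3.25 to 3.39 in transgenic and 3.13 to 3.64 in wild-type whole skin. The genotypes overlapped in all 3 tissues. For the tested 1441923_s_at the difference, transgenic minus wild type, was -0.07 ± 0.53 in whole skin, -0.45 ± 0.48 in epidermis and -0.66 ± 0.58 in dermis (limma adjusted p = 0.967, 0.621 and 0.99). The intervals were wide, at -1.49 to 0.59 in epidermis and -1.96 to 0.64 in dermis, and both include a decrease of a log2 unit. Both untested Edn3 probe sets overlapped between genotypes in every tissue. The 4 probe sets did not follow each other closely, with Pearson correlations over the 18 arrays between -0.28 and 0.78. The highest joined 1441923_s_at and 1441924_x_at, whose suffixes mark probes that may match other transcripts as well.

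Ednrb, the receptor of the pair, has 3 tested probe sets whose correlations over the 18 arrays were 0.72 to 0.80. The probe set 1437347_at measured 2.78, 2.26 and 3.36 in transgenic epidermis, against 4.37, 3.48 and 4.17 in wild-type epidermis. It measured 7.16, 7.32 and 6.70 in transgenic dermis, against 5.50, 5.76 and 6.80 in wild-type dermis, and 6.81, 7.19 and 6.89 in transgenic whole skin, against 7.62, 6.80 and 7.24 in wild-type whole skin. Every epidermal array was thus below every dermal and whole-skin array. Transgenic epidermis lay below wild-type epidermis without overlap, while the genotypes overlapped in dermis and in whole skin.

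The layer difference of Ednrb 1437347_at was called in both genotypes. Dermis exceeded epidermis by 4.26 ± 0.46 in transgenic skin (95% interval 3.23 to 5.29, limma adjusted p = 0.000964) and by 2.01 ± 0.47 in wild-type skin (95% interval 0.98 to 3.04, limma adjusted p = 0.0143). Without wild-type dermis replicate 3 the second adjusted p was 0.0983. The genotype differences were -1.20 ± 0.66 in epidermis (limma adjusted p = 0.352), 1.04 ± 0.40 in dermis (limma adjusted p = 0.99) and -0.26 ± 0.21 in whole skin (limma adjusted p = 0.599). The genotype effect in dermis minus that in epidermis was 2.24 ± 0.66 (limma adjusted p = 0.55) and did not pass.

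The other Ednrb probe sets gave smaller differences between layers. For 1426314_at, transgenic epidermis measured 1.85, 3.17 and 4.18 and transgenic dermis 5.11, 5.27 and 5.37, a dermis minus epidermis difference of 2.18 ± 0.65 (limma adjusted p = 0.0547), and the wild-type difference was 0.47 ± 0.50. For 1423594_a_at the differences were 1.0 ± 0.54 in transgenic and 0.74 ± 0.37 in wild-type skin, neither called. Between genotypes in epidermis, 1423594_a_at differed by -0.90 ± 0.51 and 1426314_at by -1.32 ± 0.72, so the 3 probe sets all had negative estimates that did not pass. In whole skin 1423594_a_at measured 5.71, 5.91 and 5.49 in transgenic against 6.39, 5.99 and 6.42 in wild-type mice, without overlap, and its difference of -0.56 ± 0.18 did not pass either (limma adjusted p = 0.177).

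Cell types that carry Ednrb gave no called genotype difference among their markers, apart from Flt1 in the endothelial list. Of 6 tested melanocyte and 5 tested Schwann cell markers, 0 were called between genotypes in any tissue by limma. At an unadjusted p under 0.05, 2 melanocyte markers had positive differences in epidermis, 1 in whole skin and 3 in dermis, and 2 Schwann cell markers had negative ones in epidermis and 2 in whole skin. The Schwann cell markers summed to 143 to 182 in transgenic and 232 to 357 in wild-type epidermis, which did not overlap, and to 1355 to 2861 in transgenic and 1949 to 2288 in wild-type dermis. The melanocyte markers summed to 66.6 to 290 in transgenic and 47.7 to 67.6 in wild-type epidermis, and to 395 to 633 in transgenic and 216 to 351 in wild-type dermis, where the groups did not overlap. Between layers, 3 of 6 melanocyte markers were higher in dermis in each genotype, as were 3 of 5 Schwann cell markers in transgenic and 4 of 5 in wild-type skin. The part of any of these cell types in the Ednrb values was not tested.

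The Ednrb promoter is shown beside that of Kitl below, since probe sets of both genes were called higher in dermis in each genotype. The Ednrb window lies at chr14:103843652-103843951 on the minus strand of GRCm38.p6 and the Kitl window at chr10:100015571-100015870 on the plus strand, and capitals mark the RBPJ letters TGGGAA, at position 97 in Kitl. Unlike the Edn1 window, neither is placed on the outermost start of its gene, at 103844508 for Ednrb and 100015615 for Kitl. The Ednrb window lies wholly inside the gene, and the Kitl window spans that start.
Ednrb: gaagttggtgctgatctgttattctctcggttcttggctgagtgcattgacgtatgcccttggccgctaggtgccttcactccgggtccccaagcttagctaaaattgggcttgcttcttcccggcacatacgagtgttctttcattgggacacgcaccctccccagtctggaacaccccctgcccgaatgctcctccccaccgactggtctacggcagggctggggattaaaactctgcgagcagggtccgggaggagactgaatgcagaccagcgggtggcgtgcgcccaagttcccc
Kitl: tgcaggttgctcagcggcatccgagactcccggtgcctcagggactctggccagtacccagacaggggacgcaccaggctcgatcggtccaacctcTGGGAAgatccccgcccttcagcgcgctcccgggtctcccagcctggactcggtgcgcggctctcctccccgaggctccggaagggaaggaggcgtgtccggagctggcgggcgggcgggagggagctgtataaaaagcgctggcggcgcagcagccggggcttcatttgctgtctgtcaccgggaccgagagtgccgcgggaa
None of the 3 motifs occurs in this Ednrb window, and TGANTCA and AGATAA do not occur in this Kitl window. RefSeq windows were matched for 5 of the 6 members, Edn1, Edn3, Ednrb, Kitl and Hgf. Of the windows not printed, the single Edn3 window holds none of the 3 motifs, and TGGGAA occurs in the first Hgf window at position 212.

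Kitl, the ligand of Kit, has 4 tested probe sets, 3 of which share a design sequence per the platform annotation and are not independent. The probe set 1415855_at measured 4.17, 4.60 and 3.78 in transgenic epidermis, against 5.14, 4.70 and 5.12 in wild-type epidermis. It measured 7.01, 7.10 and 7.32 in transgenic dermis, against 6.81, 6.61 and 6.71 in wild-type dermis, and 6.10, 6.49 and 6.30 in transgenic whole skin, against 6.55, 6.57 and 6.67 in wild-type whole skin. The genotypes did not overlap in any tissue, with the transgenic arrays lower in epidermis and in whole skin and higher in dermis. By mean, transgenic dermis was highest and transgenic epidermis lowest, and of neighbours in the order only wild-type dermis and wild-type whole skin overlapped.

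**Figure D2:**
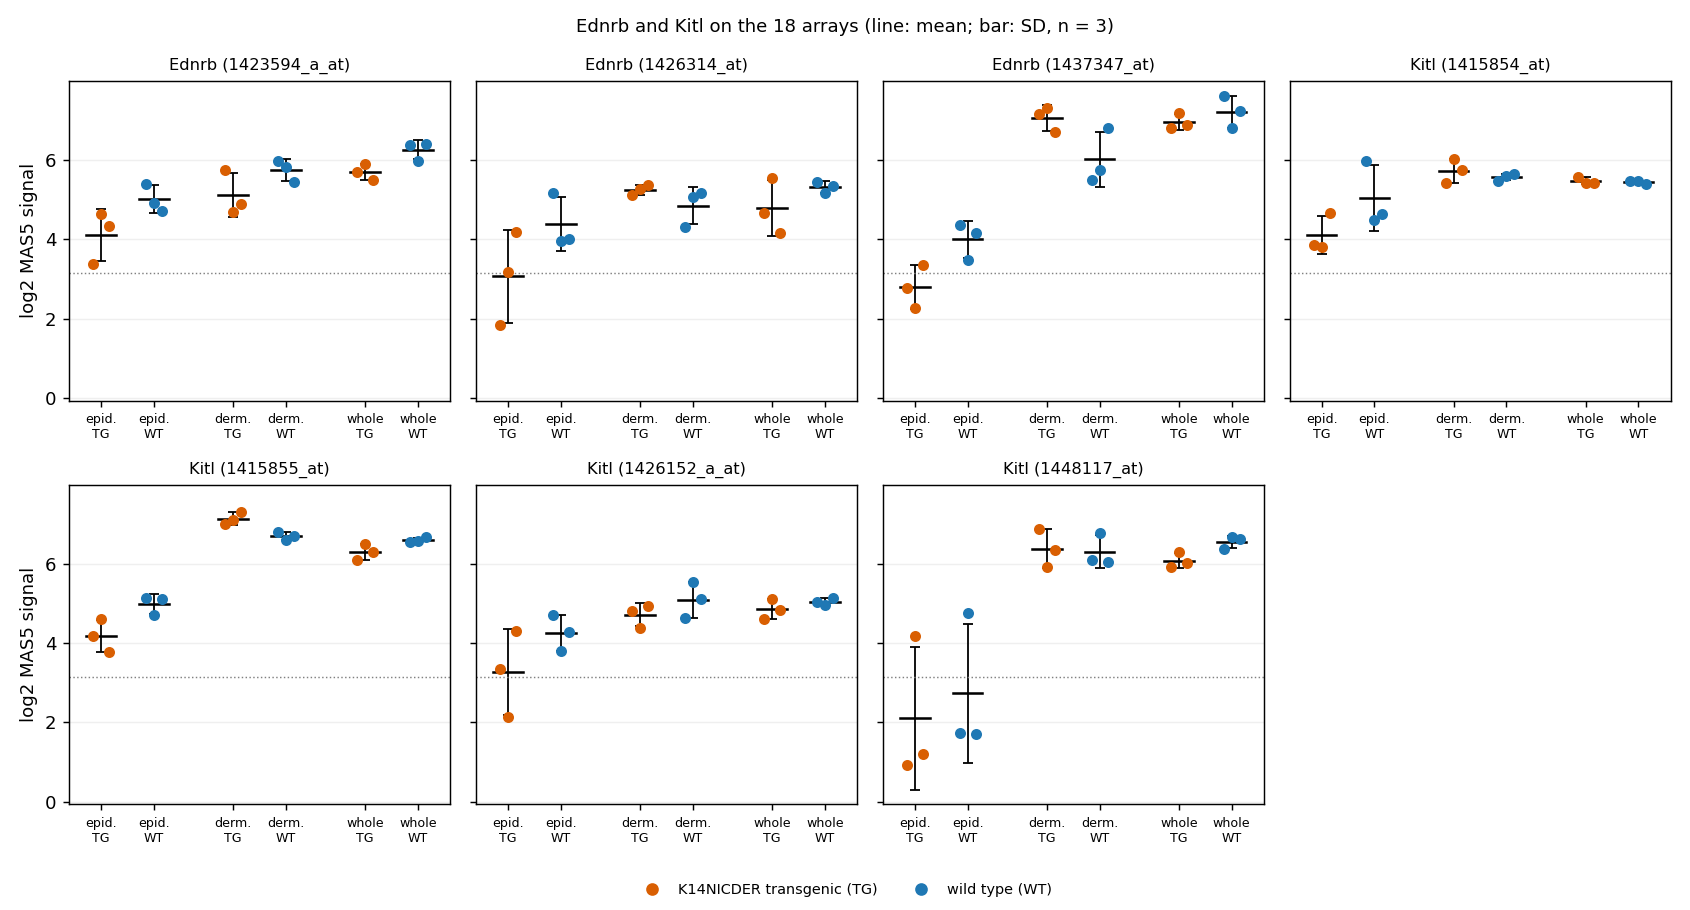
Log2 MAS5 signal of the 3 Ednrb and 4 Kitl probe sets on each of the 18 arrays, transgenic in orange and wild type in blue. Lines are means and bars SD of 3 arrays, and the dotted line is the filter at 3.15. In Ednrb 1437347_at and in Kitl 1415855_at and 1448117_at every epidermal array lies below every dermal array.

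Dermis exceeded epidermis for Kitl 1415855_at by 2.96 ± 0.38 in transgenic skin (7.80-fold, limma adjusted p = 0.00163) and by 1.73 ± 0.32 in wild-type skin (3.31-fold, limma adjusted p = 0.00525). For 1448117_at the differences were 4.27 ± 0.84 in transgenic (limma adjusted p = 0.0107) and 3.57 ± 0.75 in wild-type skin (limma adjusted p = 0.00887). Its epidermal arrays were uneven, at 0.92, 4.18 and 1.21 in transgenic and 1.74, 4.75 and 1.70 in wild-type mice, so the size of its fold is imprecise. Leaving out 1 array gave 3.68 (without transgenic epidermis replicate 1) to 5.31 (without transgenic epidermis replicate 2) in transgenic skin, and 3.06 (without wild-type epidermis replicate 3) to 4.58 (without wild-type epidermis replicate 2) in wild-type skin. The third, 1415854_at, was higher in transgenic dermis by 1.63 ± 0.45 (limma adjusted p = 0.0417), which failed the threshold in 5 of the 6 repeats that each left out 1 array (adjusted p 0.0304 to 0.146) and was 0.53 ± 0.45 in wild-type skin. The fourth, 1426152_a_at, comes from another design sequence and differed by 1.45 ± 0.66 in transgenic and 0.83 ± 0.46 in wild-type skin, neither called.

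Across all members, 4 of 12 tested probe sets were called higher and 1 of 12 lower in transgenic dermis than in transgenic epidermis, where 13% of all tested probe sets were called (6.85% higher and 6.1% lower). In wild-type skin 3 of 12 were called higher and 0 of 12 lower in dermis, where 18.7% were called (9.22% higher and 9.46% lower). At an unadjusted p under 0.05 it was 6 of 12 members in transgenic and 4 of 12 in wild-type skin, beside 28.3% and 35.5% of all. The layers did not overlap for 7 of 12 in the higher (16.2% of all) and 1 of 12 in the lower direction (17.5% of all) in transgenic skin, and for 5 of 12 (17.2% of all) and 0 of 12 (22.6% of all) in wild-type skin. The members called higher in dermis were probe sets of Kitl and Ednrb in both genotypes, and the probe set called lower was Edn1 in transgenic skin. The median dermis minus epidermis difference of the 12 was 1.23 in transgenic and 0.90 in wild-type skin, beside -0.05 and -0.16 over all tested probe sets. Of the 12, 4 were Kitl and 3 were Ednrb probe sets. Those of the same gene are not independent, so these counts and medians do not describe separate genes. Markers of several dermal cell types moved the same way, among them endothelium with 6 of 10 higher in transgenic and 8 of 10 in wild-type dermis, and their part in the member values was not tested.

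**Figure D3:**
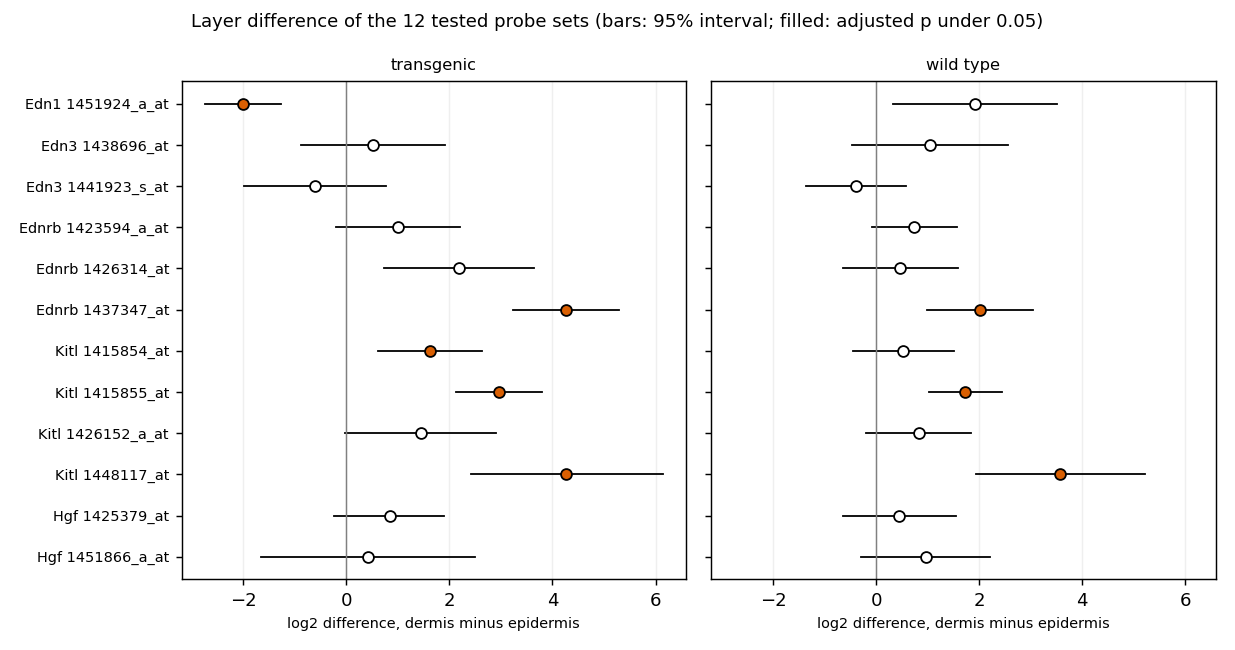
Difference in log2 signal, dermis minus epidermis, of the 12 tested member probe sets in transgenic and in wild-type skin. Points are limma estimates with 95% intervals, and filled points have an adjusted p under 0.05. Kitl 1415855_at and 1448117_at and Ednrb 1437347_at are filled to the right in both genotypes, and Edn1 is filled to the left in transgenic skin.

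Between genotypes no Kitl probe set was called. For 1415855_at the difference, transgenic minus wild type, was -0.80 ± 0.47 in epidermis (95% interval -1.83 to 0.22, limma adjusted p = 0.376), 0.43 ± 0.28 in dermis (95% interval -0.19 to 1.06, limma adjusted p = 0.99) and -0.30 ± 0.15 in whole skin (95% interval -0.63 to 0.03, limma adjusted p = 0.364). The genotype effect in dermis minus that in epidermis was 1.24 ± 0.46 (limma adjusted p = 0.649). The other 3 probe sets also had negative estimates in epidermis, of -0.93, -0.99 and -0.62, with overlapping groups. In whole skin 1448117_at measured 5.93, 6.29 and 6.03 in transgenic against 6.37, 6.67 and 6.62 in wild-type mice, without overlap, and its difference of -0.47 ± 0.16 did not pass (limma adjusted p = 0.185).

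Keratinocytes make Kitl, and 2 of 8 basal keratinocyte markers were called lower in transgenic epidermis. Their summed signal, given above for epidermis, was lower on every transgenic than on every wild-type array, and the part of this in the Kitl estimates was not tested. In dermis, where the Kitl 1415855_at and Ednrb 1437347_at estimates were positive, 4 of 8 growing hair follicle markers were called higher, with a summed signal of 2192 to 3877 in transgenic and 192 to 278 in wild-type dermis, and the part of hair follicles was not tested. Over all members in epidermis, 10 of 12 tested probe sets had negative estimates, among them every Ednrb and Kitl probe set. Probe sets of the same gene are not independent, so this is not a count of genes. The share of negative estimates over all tested probe sets was not counted, and their median, given below, was negative too. Groups did not overlap for 1 of 12 in the higher direction (8.27% of all tested probe sets) and for 3 of 12 in the lower direction (14.7%). The members' median was -0.71 and that of all tested probe sets -0.20. With quantile normalization the median of all tested probe sets was -0.00, and the epidermal genotype differences are to be read against a shift of that size. In whole skin the groups did not overlap for 1 of 12 in the higher (9.66% of all) and 3 of 12 in the lower direction (12.1% of all), and in dermis for 1 of 12 in the higher (3.09% of all) and 0 of 12 in the lower direction (6.04% of all).

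**Figure D4:**
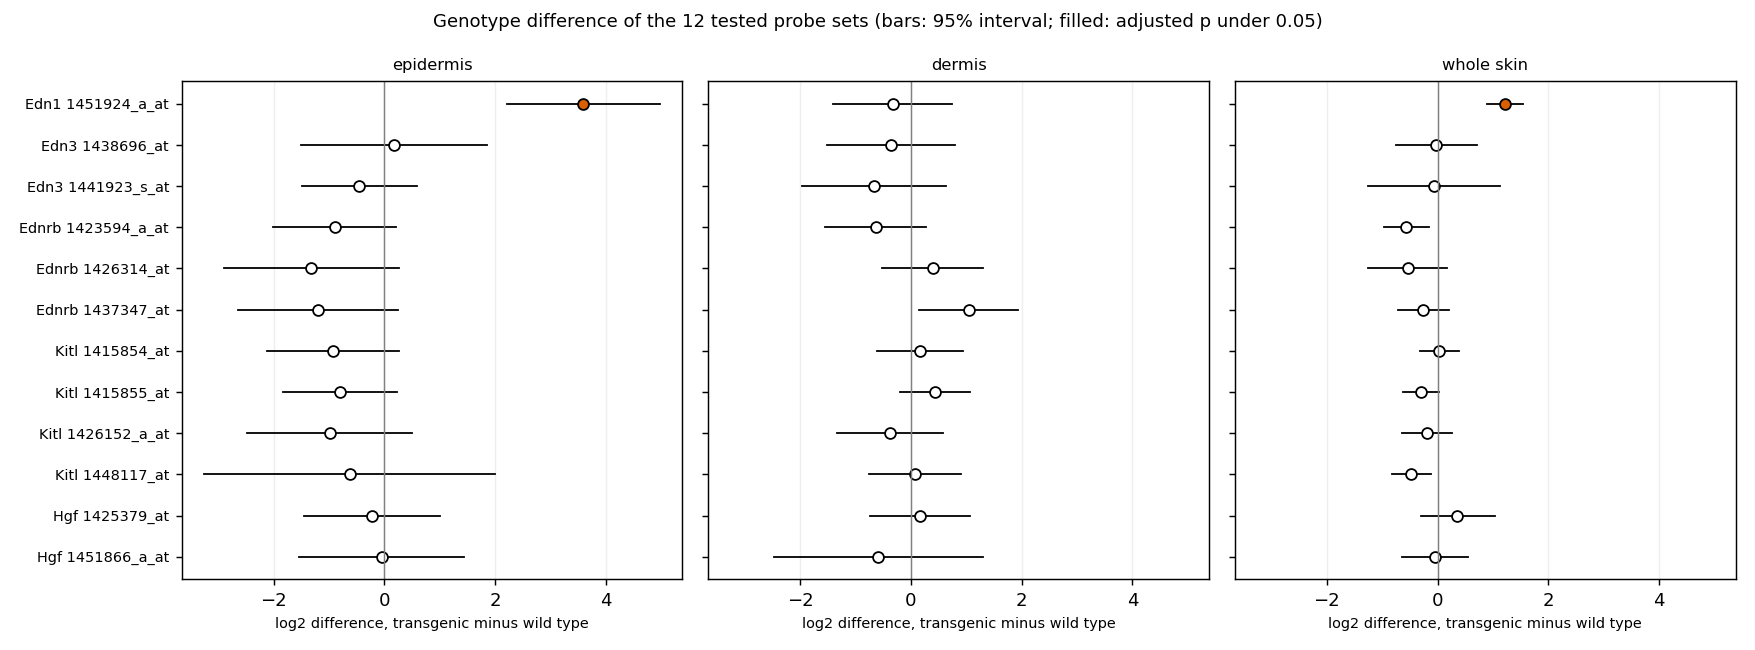
Difference in log2 signal, transgenic minus wild type, of the 12 tested member probe sets in epidermis, dermis and whole skin. Points are limma estimates with 95% intervals, and filled points have an adjusted p under 0.05. Edn1 is the single filled point in epidermis and in whole skin, and dermis has none.

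Kit, the receptor of Kitl, and the melanocyte regulators Mitf, Sox10, Pax3 and Mc1r form the list set beside Kitl. By limma 0 of the 5 were called between genotypes in any tissue, with an unadjusted p under 0.05 for Sox10 in epidermis alone (-1.94), and the Kit difference was 0.02 ± 0.80 in epidermis. In dermis against epidermis 4 of 5 were higher in each genotype. Kit was higher in dermis by 2.27 ± 0.59 in transgenic (limma adjusted p = 0.033) and 2.36 ± 0.61 in wild-type skin (limma adjusted p = 0.0215). Its epidermal means, 3.17 in transgenic and 3.15 in wild-type skin, were close to the filter value. The other Kit probe set, 1415900_a_at, was below the filter and gave layer differences of 0.40 in transgenic and 0.67 in wild-type skin. Mitf, Sox10 and Pax3, transcription factors of the melanocyte lineage, were higher by 2.29, 4.02 and 3.23 in transgenic and by 2.72, 1.86 and 1.55 in wild-type skin. Mc1r, the melanocortin receptor, was not called.

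Nrg1 (1456524_at) had a mean of 2.08 over the 18 arrays and was not tested in the filtered fit. It measured 4.21, 5.59 and 4.61 in transgenic epidermis, against 0.89, 2.67 and -1.05 in wild-type epidermis. It measured -0.33, 2.06 and 3.75 in transgenic dermis, against 1.83, -1.18 and 1.42 in wild-type dermis, and 3.82, 3.53 and 2.58 in transgenic whole skin, against 2.34, -0.98 and 1.71 in wild-type whole skin. Transgenic arrays lay above wild-type arrays without overlap in epidermis and in whole skin, and the groups overlapped in dermis. All 9 wild-type values were below the filter, where MAS5 values scatter widely.

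The Nrg1 difference, transgenic minus wild type, was 3.97 in epidermis and 2.28 in whole skin, and 1.13 in dermis. When every probe set was kept, the limma adjusted p-values were 0.0818 for epidermis, 1 for dermis and 0.287 for whole skin, so none passed. With 16 added on the linear scale, which damps values near the bottom, the epidermal difference was 1.26 (limma adjusted p = 0.0892). In transgenic skin, dermis minus epidermis was -2.98 (limma adjusted p = 0.0929 with every probe set kept). Schwann cells, which respond to Nrg1, had no called marker between genotypes, as given above.

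Among the other genes of the neuregulin system, 7 of 9 were tested and 0 were called between genotypes in any tissue by limma, with 1 of 7 at an unadjusted p under 0.05 in whole skin and 0 of 7 in epidermis and in dermis. Erbb2, the signalling partner receptor, was lower in dermis by a difference of -1.22 ± 0.35 in transgenic (limma adjusted p = 0.0466) and -1.09 ± 0.28 in wild-type skin (limma adjusted p = 0.0212). Adam19, a protease that sheds neuregulin, was higher in wild-type dermis by 1.46 ± 0.28 (limma adjusted p = 0.00607). Erbb3 was split between its probe sets. The one with the higher mean, 1434606_at, gave -0.75 in transgenic and 0.02 in wild-type skin and was not called, while 1452482_at was called lower in dermis in both, with differences of -4.52 in transgenic and -2.44 in wild-type skin. The genotype counts above rest on 1434606_at, which differed by -0.34 in dermis. There 1452482_at differed by -2.64 and was not called (limma adjusted p = 0.99). It ranged from 0.43 to 3.94 in transgenic and 4.64 to 5.74 in wild-type dermis, without overlap. Erbb4 was below the filter.

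Hgf has 3 probe sets that correlated weakly with each other over the 18 arrays (0.05 to 0.28), so no common pattern can be described. The tested 1425379_at ranged from 4.08 to 5.07 in transgenic and 4.09 to 5.79 in wild-type epidermis, from 5.03 to 5.92 in transgenic and 5.04 to 5.40 in wild-type dermis, and from 4.59 to 5.29 in transgenic and 4.36 to 5.24 in wild-type whole skin. The genotypes overlapped in each tissue. The tested 1451866_a_at measured 5.66, 3.20 and 2.07 in transgenic dermis, against 4.02, 4.24 and 4.43 in wild-type dermis, with the transgenic arrays on both sides of the wild-type ones. Its dermal difference was -0.59 ± 0.84 (95% interval -2.48 to 1.30). The untested 1442884_at measured -0.70, 1.0 and -1.10 in transgenic epidermis, against 4.58, 3.15 and 3.26 in wild-type epidermis, which did not overlap. That difference of -3.93 did not pass when every probe set was kept (limma adjusted p = 0.087), and neither of the tested Hgf probe sets differed in this way, at -0.23 and -0.05.

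**Figure D5:**
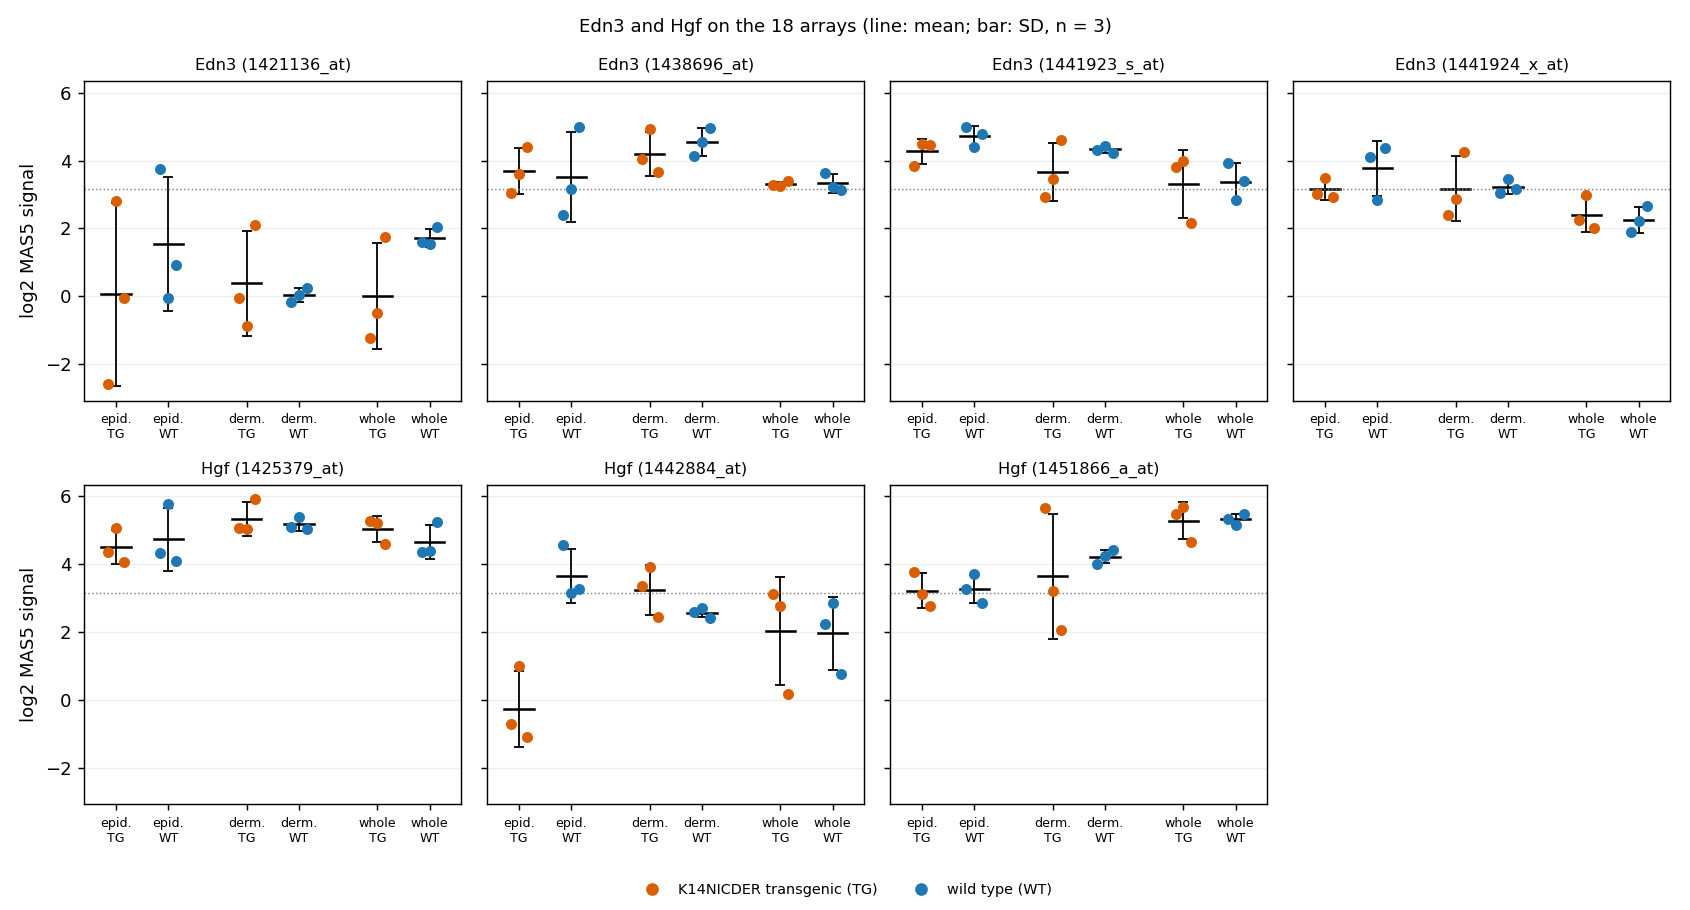
Log2 MAS5 signal of the 4 Edn3 and 3 Hgf probe sets on each of the 18 arrays, transgenic in orange and wild type in blue. Lines are means and bars SD of 3 arrays, and the dotted line is the filter at 3.15. Edn3 1421136_at lies mostly below the dotted line, and Hgf 1442884_at is the single panel in which transgenic and wild-type epidermis stand apart.

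Of the other genes of the Hgf system, 7 of 8 were tested and 0 were called between genotypes in any tissue by limma, with 2 of 7 at an unadjusted p under 0.05 in epidermis, 0 of 7 in dermis and 4 of 7 in whole skin. Met, the receptor, differed by -0.76 ± 0.32 in epidermis (limma adjusted p = 0.257) and -0.64 ± 0.23 in whole skin (limma adjusted p = 0.22). Its other tested probe set, 1422990_at, differed by -0.41 in epidermis and -0.55 in whole skin, neither called. Between layers, St14, or matriptase, a serine protease that activates pro-Hgf, was lower in dermis by differences of -1.39 ± 0.28 in transgenic and -1.33 ± 0.25 in wild-type skin, and Mst1r, the receptor related to Met, by -2.80 ± 0.42 in transgenic and -1.16 ± 0.36 in wild-type skin. Spint1, an inhibitor of Hgf-activating proteases, was called in transgenic skin (-0.96 ± 0.26). Of the other endothelin genes 4 of 5 were tested, Edn2, Ece1, Ece2 and Mme, and 0 were called between genotypes by limma, with Ece1 alone at an unadjusted p under 0.05 in epidermis and whole skin. Ece1, which cleaves the endothelin precursors, was lower in transgenic dermis than in transgenic epidermis (-1.03 ± 0.28, limma adjusted p = 0.0393), and differed between genotypes in epidermis by 0.87 ± 0.23 (limma adjusted p = 0.103). Ednra was not named by 1 symbol and was not analysed here.

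The genes whose patterns were most like the members were taken by Pearson correlation over the 18 arrays, which share the 3 tissues and 2 genotypes, so the values describe likeness only. Edn1 was closest to Map3k7 (0.908), Ctif (0.898) and Rab31 (0.889). Kitl was closest to Pde3b (0.980), Scn7a (0.974) and Nrp1 (0.969), and Ednrb to Aoc3 (0.965), Fap (0.954) and Prrg1 (0.952). Nrg1, by its probe set below the filter, was closest to Ralgapa2 (0.839), Klk13 (0.815) and Lce3a (0.800). Edn3, by 1441923_s_at, was closest to 4930568G15Rik (0.905), Pnmal1 (0.90) and Lce3b (0.895). That probe set had a correlation of 0.14 with the other tested Edn3 probe set. Hgf had the weakest likenesses, to Dna2 (0.756), Slc18a2 (0.75) and Igf1os (0.749).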

How the data were processed

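The authors deposited 1 table of log2 values for 45037 probe sets on 18 arrays. MAS5 is named in the submitters' processing notes, with no version or settings given in the sources used here. The log2 scale was inferred from the values, which ran from -7.52 to 14.42 and, set back to a linear scale, had 2% trimmed means between 98.9 and 99.5 on every array. No detection calls were used, and the number of arrays limits the precision. The values entered the fits as deposited.

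The platform annotation supplied gene names (34945 probe sets with 1 symbol, 932 with several, 9160 not named here). Probe sets with a mean over all arrays above the 30th percentile were fitted with limma 3.58.1 in R 4.3.3 (lmFit, eBayes with trend), using only the arrays compared, with Benjamini-Hochberg adjustment over 31526 probe sets. Only those arrays were used because the median SD within groups was 0.227 in whole skin but 0.492 in epidermis and 0.532 in dermis. The 6 comparisons set transgenic against wild type within epidermis, dermis and whole skin, the genotype effect in dermis minus that in epidermis, and dermis against epidermis in each genotype.

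All member probe sets were named. List genes were represented by their tested probe set with the highest mean, and the text names those called and the direct receptors. For each member the 3 most correlated genes were named. The members and lists were chosen with earlier results of these data known. Alternatives were a fit over all 18 arrays, no filter or the 50th percentile, 16 added on the linear scale, quantile normalization, a common 75th percentile, 1 probe set per gene, no trend, a replicate block, and leaving out each array. Of 153 array pairs, 0 were identical. The marker lists of mast cells, macrophages, adipocytes, dermal papilla, growing hair follicle and skeletal muscle were counted too. In dermis against epidermis, 5 of 6 mast cell, 5 of 8 macrophage and 3 of 4 adipocyte markers were higher in transgenic skin, and 5 of 6, 6 of 8 and 4 of 4 in wild-type skin. Between genotypes, 4 of 8 growing hair follicle markers were higher in transgenic dermis, 1 of 8 in whole skin and 1 of 8 in epidermis. Of the dermal papilla markers 1 of 7 was higher in transgenic epidermis, and 2 of 7 in transgenic and 3 of 7 in wild-type dermis against epidermis. No skeletal muscle marker of 6 was called in any comparison. Promoter windows are from the RefSeq table for GRCm38.p6.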

Additional observations from a re-analysis of the deposited data

Results flagged for a closer look

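Kitl 1415855_at was marked because its transgenic and wild-type arrays stood apart in opposite directions in different tissues. The difference, transgenic minus wild type, was -0.80 in epidermis and -0.30 in whole skin but 0.43 in dermis, with 3 of 3 transgenic arrays on that side of all wild-type arrays in each. The difference between dermis and epidermis was tested, with a value of 1.24 (limma adjusted p = 0.649), and did not pass. The difference between dermis and whole skin was not tested. The 3 other Kitl probe sets did not stand apart in epidermis or in dermis.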

How the results depend on the processing

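Of 672 member values recomputed under the settings other than leaving out an array, 645 kept their direction and their side of the threshold or moved by less than the replicate SD, and 6 changed sign. Only 16 added on the linear scale, quantile normalization and a common 75th percentile alter the estimates, with 1, 3 and 2 sign changes. The other settings keep the estimate, so its sign could not change there. With no filter, the untested probe sets were compared with the same fit and could not move. Leaving out single arrays kept 464 of 504 values and changed the sign of 29. No value that changed sign was past the threshold either way. The cause of these changes was not tested, except that 1 probe set per gene tests fewer probe sets.

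With all 18 arrays in 1 fit, the called probe sets numbered 1811 in epidermis (470 in the main analysis), 56 in dermis (7), 34 in whole skin (493), 45 for the genotype effect in dermis minus that in epidermis (0), 8979 between transgenic layers (4083) and 8488 between wild-type layers (5889). Called members were then 0 in whole skin, 1 for the difference between genotype effects, which was Edn1 (adjusted p = 0.0486), 8 between transgenic layers and 4 between wild-type layers, where Edn1 passed (adjusted p = 0.0143). Without a trend in the prior, 51 probe sets were called in epidermis, with 0 members, 2 in dermis, 58 in whole skin and 1 for the difference between genotype effects. That last count was 7 with no filter, 14 with 16 added on the linear scale and 3 with 1 probe set per gene. The stricter filter left 4 in dermis. With 1 probe set per gene, 2684 were called between wild-type layers and 2374 between transgenic layers, 3 of them members.

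The replicate numbers gave no sign of pairing within a tissue or between wild-type layers, and for the transgenic layers pairing was not settled. Correlations of same-numbered deviations were -0.33 to 0.03 in epidermis, -0.30 to -0.05 in dermis and -0.14 to 0.07 in whole skin. They were 0.00 to 0.40 between transgenic layers, with 2 of 3 over 0.1, and -0.04 to 0.05 between wild-type layers. With the number as a replicate block, 192 probe sets were called in epidermis, Edn1 passed between wild-type layers (adjusted p = 0.0299) and Ednrb 1426314_at between transgenic layers (0.0343), and no other member call changed. Ednrb 1426314_at between transgenic layers also passed with quantile normalization (0.04) and with 16 added (0.0301), and Kitl 1415854_at did not pass there with no filter (0.0586).

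Leaving out 1 array gave 88 to 2396 called in epidermis (without transgenic replicate 1 and wild-type replicate 2), with 0 to 1 members, 1 to 36 in dermis (without wild-type replicate 2 and transgenic replicate 1), and 138 to 509 in whole skin (without wild-type replicate 1 and transgenic replicate 3). It gave 0 to 45 for the difference between genotype effects, with 0 to 1 members, 1751 to 6851 between transgenic layers (without epidermis replicate 3 and dermis replicate 1) and 2461 to 8818 between wild-type layers (without dermis replicate 3 and epidermis replicate 2). Without wild-type epidermis replicate 2, Edn1 passed for the difference between genotype effects (adjusted p = 0.046) and between wild-type layers (0.0159).

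Values that changed sign were small and uncalled. In epidermis Hgf 1425379_at was 0.25 and 1451866_a_at 0.44 after quantile normalization, and 1451866_a_at was 0.07 with a common 75th percentile. In whole skin Edn3 1441923_s_at was 0.01 with 16 added and 1438696_at 0.02 with a common 75th percentile, and Ednrb 1423594_a_at was -0.17 for the difference between genotype effects after quantile normalization. Over single arrays left out, the epidermal ranges were -0.38 to 0.91 for Edn3 1438696_at, -1.66 to 0.39 for Kitl 1448117_at, -0.55 to 0.30 for Hgf 1425379_at and -0.33 to 0.18 for Hgf 1451866_a_at. The dermal ranges were -0.75 to 0.12 for Edn1, -0.18 to 0.31 for Kitl 1448117_at, -0.13 to 0.32 for Hgf 1425379_at and -1.60 to 0.20 for Hgf 1451866_a_at. In whole skin they were -0.12 to 0.13 for Edn3 1438696_at, -0.41 to 0.51 for Edn3 1441923_s_at, -0.02 to 0.06 for Kitl 1415854_at and -0.25 to 0.26 for Hgf 1451866_a_at. For the difference between genotype effects they were -1.27 to 0.02 for Edn3 1438696_at, -0.68 to 0.16 for Edn3 1441923_s_at, -0.10 to 0.52 for Ednrb 1423594_a_at, -0.31 to 1.74 for Kitl 1448117_at, -0.14 to 0.71 for Hgf 1425379_at and -1.55 to 0.25 for Hgf 1451866_a_at. Between transgenic layers Hgf 1451866_a_at ranged over -0.59 to 1.20.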
